A study of Rattus norvegicus with 5 samples.

Results

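The genes described are 10 genes of fatty acid synthesis and desaturation: Acly, Acaca, Fasn, Elovl5, Elovl6, Scd, Fads1, Fads2, Thrsp and Srebf1. They were chosen by name, as the discovery probes of a rat whole-genome array whose annotated symbol is one of these or an older synonym. Of the 10 genes, 9 had probes of their own, 12 probes in all, among 12198 genes named on the array. The only probe annotated to Srebf1, the SREBP-1 transcription factor, is annotated to Rai1 as well, so no value is given for it.

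Each of 5 single-colour arrays held 1 RNA sample. The reference was the liver of 1 untreated male SD rat of 50 weeks. The lines C5F and C6 metastasise little and the lines N1 and L2 much. All are hepatocellular carcinoma lines from male F344 rats given N-nitrosomorpholine and diethylnitrosamine, with an age of 31 weeks on the labels. Strain, age, carcinogen treatment, culture and tumour all separate the lines from the liver and cannot be told apart, and in a whole tissue fewer cells of a type cannot be told apart from less RNA per cell. Each line is 1 line on 1 array, so errors measure the spread between lines and not between cultures.

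Liver makes fatty acids from citrate. Acly splits citrate to acetyl-CoA, Acaca carboxylates that to malonyl-CoA, and Fasn builds palmitate from both. Elovl6 and Elovl5 lengthen fatty acids, Scd puts in the double bond of oleate, and Fads2 and Fads1 desaturate the essential fatty acids. Insulin, through SREBP-1, and glucose, through ChREBP, raise most of these genes in liver, and Thrsp (Spot 14) is a small protein long used as a marker of that response.

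Between 30.6% and 39.2% of the 33849 discovery probes were above background on an array, and 7.72% to 9.62% of spots were not usable, because the scanner software called them irregular, contaminated or masked. Signals below are log2 values after quantile normalisation, with a floor of 1.34. The number of arrays limits the precision. The liver expressed hepatocyte genes, C5F kept some of them, and C6, N1 and L2 largely did not. The summed linear signal of 6 hepatocyte markers was 31560 in liver, 2297 in C5F and 45.6 to 55.8 in C6, N1 and L2. Of these, Alb, the albumin gene, was near background in all 4 lines. Hnf4a, a hepatocyte transcription factor, stayed above background on its brightest probe, at 7.07 in liver and 4.50 to 5.41 in the lines. Liver also held macrophage signal: the sum of 4 Kupffer cell markers was 3374 there and 52.6 to 77.3 in the lines. The part of these other cells in the results below was not tested.

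The first comparison, of the 4 lines with liver, asks how the carcinoma lines differ from the reference tissue. Thrsp and the desaturase Fads2 fell, and 6 other genes with a test did not pass it. The 3 genes that make palmitate were 0.93 to 1.47 lower in the lines on the log2 scale, and Elovl6 was the only tested gene of the 8 to point higher. limma's test with Benjamini-Hochberg adjustment called 2 of 8 genes lower and 0 higher at an adjusted p under 0.05. Among all 11949 probes tested, 9.38% were called lower, 9.01% higher and 18.4% either way. The median log2 difference was -1.42 over the 8 genes and 0.15 over all probes tested. Leaving out C5F or C6 left 0 of these genes and 0 of all probes called, and leaving out N1 or L2 left 1, Thrsp.

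**Figure D1:**
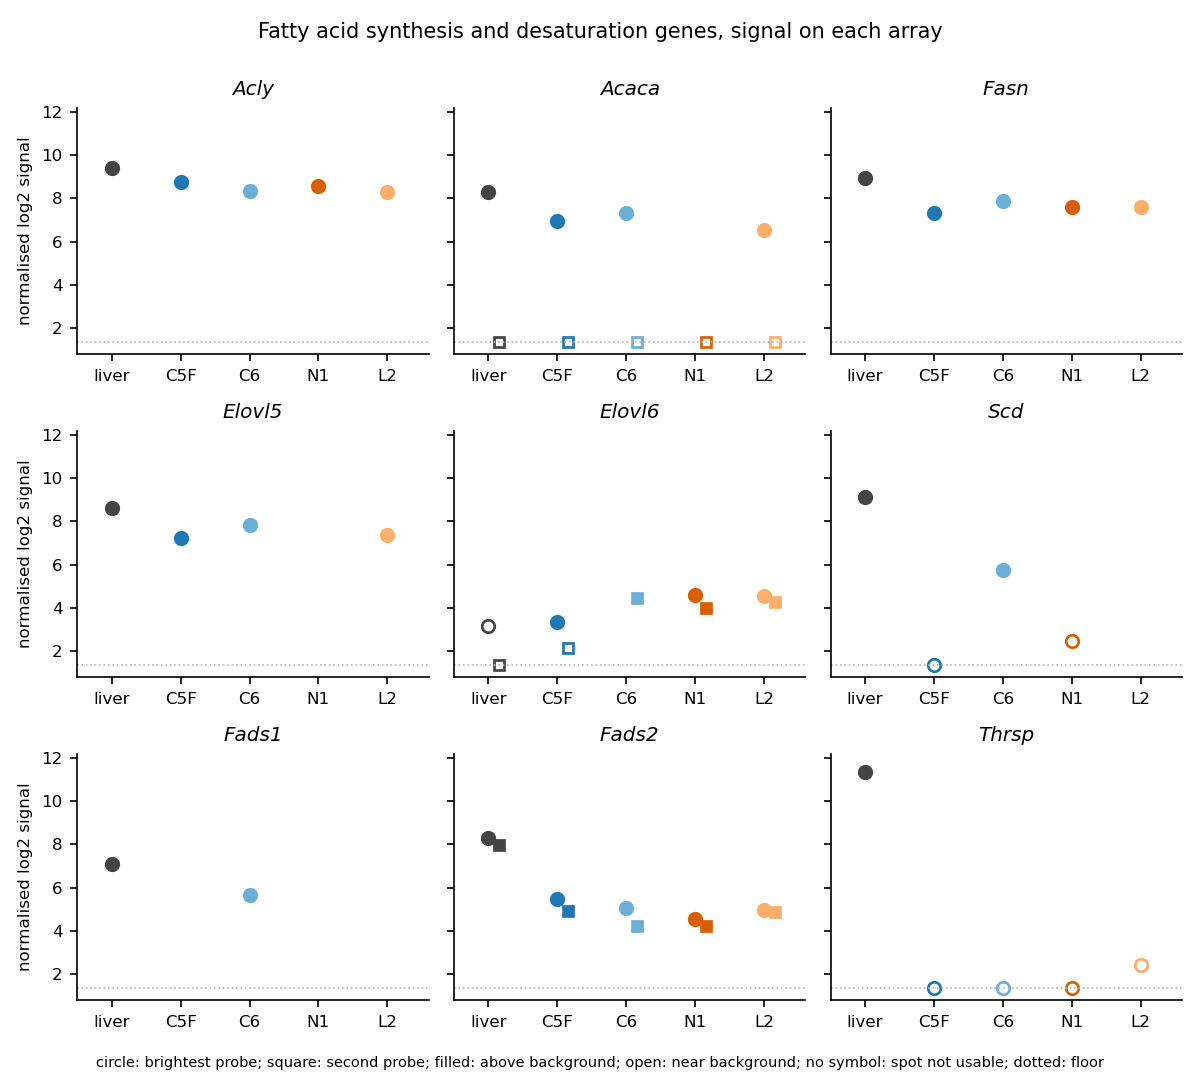
Normalised log2 signal (vertical axis) of 9 genes in liver and the lines C5F, C6, N1 and L2 (horizontal axis), 1 array each. Circles are the brightest probe and squares a second probe, filled when above background and open when near it, with no symbol where the spot was not usable. Liver lies above every usable line except for Elovl6 and for the second Acaca probe, which is at the floor on all arrays.

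Acly had a signal of 9.43 in liver. The low-metastatic lines read 8.78 (C5F) and 8.32 (C6), and the high-metastatic lines 8.58 (N1) and 8.32 (L2). All 4 lines lay below liver and close together (SD 0.22). The difference was -0.93 ± 0.29 (SE, n = 4 lines against 1 liver; limma adjusted p = 0.116).

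Acaca, the committed step of the pathway, stood at 8.31 in liver against 6.95 (C5F), 7.32 (C6) and 6.53 (L2), and its N1 spot was not usable. Its difference was -1.47 ± 0.31 (limma adjusted p = 0.0901). A second Acaca probe was near background on all 5 arrays, liver included, and carries no measure of the gene here.

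Fasn stood at 8.96 in liver. It was 7.30 (C5F) and 7.87 (C6) in the low-metastatic pair and 7.60 (N1) and 7.61 (L2) in the other. Each line was 2.14 to 3.16-fold below liver and the groups did not overlap. Among probes usable on all 5 arrays, 34.5% had all 4 lines below liver. The difference was -1.37 ± 0.31 (limma adjusted p = 0.0663), and it passed when the lines were fitted as 1 group (adjusted p = 0.0362) and with an offset of 50 in place of the floor (adjusted p = 0.0347). The range of that p over all alternatives was 0.0347 to 0.139. Acly, Acaca and Fasn thus had like differences, from 1.90-fold for Acly to 2.78-fold for Acaca, and none past the threshold.

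Neither elongase passed the test. Elovl5, which lengthens polyunsaturated fatty acids, stood at 8.60 in liver against 7.21 (C5F), 7.84 (C6) and 7.37 (L2), without N1, a difference of -1.16 ± 0.41 (limma adjusted p = 0.180). Elovl6, which takes palmitate to stearate, was near background in liver on both of its probes. Its brighter probe read 3.33 in C5F, 4.59 in N1 and 4.55 in L2, with no usable spot in C6. These 3 lines were above background, and their mean was at least 1.22-fold above the lowest signal called above background in liver (fitted difference 0.80 ± 0.24, limma adjusted p = 0.143). On the second probe C6, N1 and L2 read 4.47, 4.01 and 4.26 and C5F, at 2.16, was near background. That probe's fitted difference of 2.38 ± 1.01 depends on the floor and gives no fold.

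Of the desaturases, Fads2 passed the test, Scd did not and Fads1 had none. Fads2, the delta-6 desaturase, read 8.31 in liver. The lines read 5.49 (C5F), 5.04 (C6), 4.55 (N1) and 4.97 (L2). All 4 lines were above background and 7.10 to 13.6-fold below liver. It fell by 3.30 ± 0.32 on the log2 scale (9.88-fold, limma adjusted p = 0.0183). Its second probe read 7.96 in liver and 4.21 to 4.90 in the lines and gave -3.41 ± 0.44 (limma adjusted p = 0.0292). Without C5F, C6, N1 or L2 the adjusted p was 0.0687, 0.0764, 0.0610 and 0.0541, while the difference stayed between -3.47 and -3.15.

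Scd, stearoyl-CoA desaturase 1 of liver and fat, read 9.15 in liver. Among the lines C6 read 5.74, C5F and N1 were near background, and the L2 spot was not usable. Against liver it was 10.6-fold lower in C6, at least 72.2-fold lower in C5F and at least 43.6-fold lower in N1. The fitted difference of -6.14 ± 2.34 did not pass (limma adjusted p = 0.198). Its wide spread over the lines (SD 2.28, n = 3) depends on the floor, where C5F lay. With an offset of 50 in place of the floor the difference was -3.28 ± 0.49 and passed (limma adjusted p = 0.0441). With irregular spots kept, L2 read 5.78, beside C6. C5F and C6, of the same class, thus lay far apart.

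Fads1, the delta-5 desaturase, had usable spots only in liver, at 7.10, and in C6, at 5.65, and no test. With irregular spots kept it read 5.57 to 6.07 in the lines, all below liver (difference -1.19 ± 0.29, limma adjusted p = 0.0745).

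Scd2, the second stearoyl-CoA desaturase of rat, known from brain and other tissues more than from adult liver, was not among the 10 genes but lies near Scd on chromosome 1. It read 4.38 in liver against 9.06 (C5F), 8.64 (C6), 9.65 (N1) and 8.99 (L2). All 4 lines lay far above liver (SD 0.42). It rose by 4.71 ± 0.38 (26.1-fold, limma adjusted p = 0.0145), and a second probe, near background in liver, gave 3.33 ± 0.39 (limma adjusted p = 0.0249). Over the alternatives in which it was tested, 9 of 12 called it, with adjusted p from 0.00538 to 0.0729. The calls were lost without C5F, without C6 and without N1 (adjusted p = 0.0714, 0.0729 and 0.0513). Whether the differences of Scd and Scd2 differ from each other was not tested.

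Of the other desaturation genes, Cyb5a passed the test and Cyb5b and Fads3 did not. Cyb5a, the cytochrome b5 that passes electrons to desaturases, fell from 10.54 in liver to 7.33 to 8.10 in the lines (-2.74 ± 0.39, limma adjusted p = 0.0324). Cyb5b, its mitochondrial form, differed by -0.29 ± 0.33 on its brightest probe (limma adjusted p = 0.551) and by 0.15 and 0.92 on 2 others. Fads3, a relative of Fads2 named here after its values were seen, read 5.13 in liver and 6.53 to 8.57 in the lines (2.43 ± 0.98, limma adjusted p = 0.174).

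**Figure D2:**
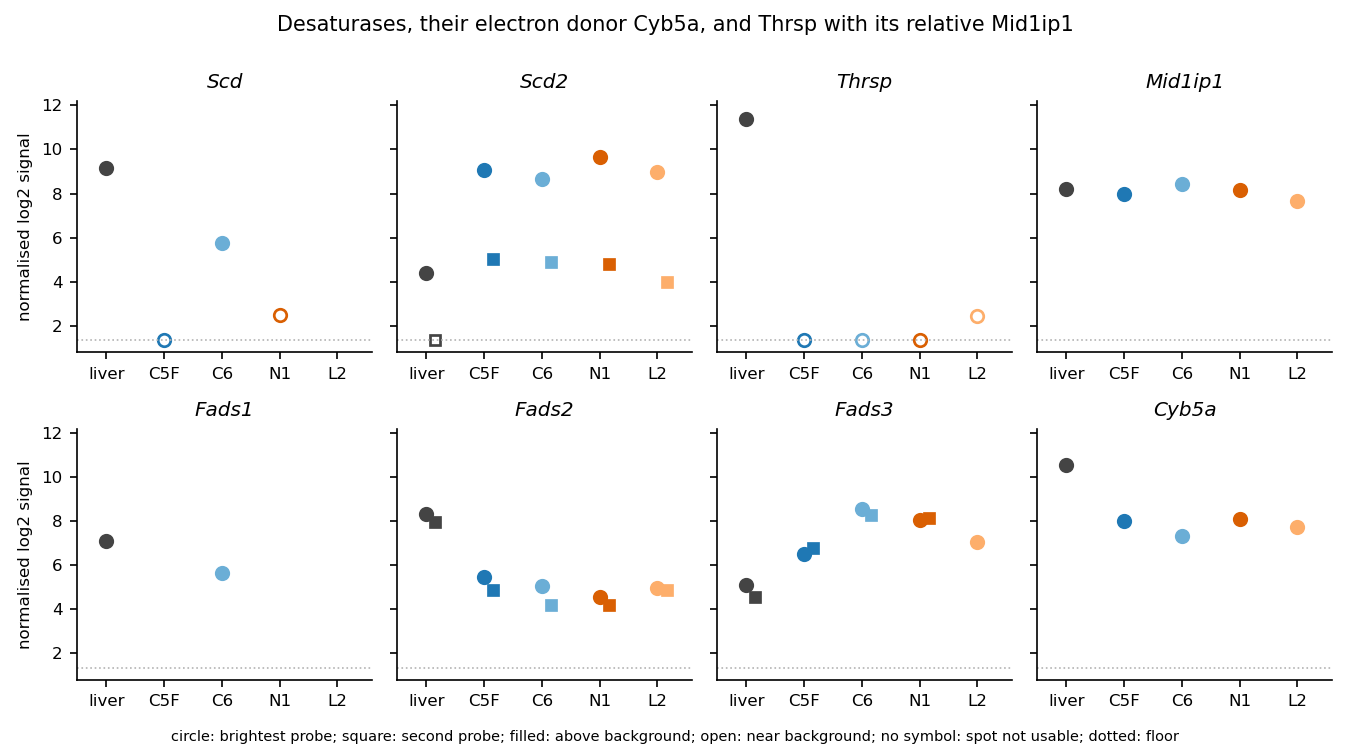
Normalised log2 signal (vertical axis) of 5 desaturases, the electron donor Cyb5a, Thrsp and its relative Mid1ip1 on each array (horizontal axis), with symbols as in the plot of the 9 genes. Scd is bright in liver at 9.15 and Scd2 at 8.64 to 9.65 in the lines. Thrsp is near background in all lines, and Mid1ip1 is at 7.64 to 8.44 there.

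Thrsp had the highest liver signal of the 9 genes, at 11.37, and was near background in C5F, C6, N1 and L2. C5F, C6 and N1 were at the floor, so the spread between lines behind the p-values of Thrsp depends on the floor. The fall was at least 245-fold over the lines together, and at least 203 to 336-fold line by line (limma adjusted p = 0.00868). Thrsp passed the filter on dim probes only through liver, and a probe kept that way points lower in the lines. With no filter its limma adjusted p was 0.0215. The test was passed without N1 and without L2, but not without C5F or C6. Mid1ip1, a paralogue of Thrsp that also binds acetyl-CoA carboxylase, was named after its values were seen. It read 8.23 in liver against 7.96 (C5F), 8.44 (C6), 8.17 (N1) and 7.64 (L2), a difference of -0.17 ± 0.36 (limma adjusted p = 0.749).

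Promoters of the genes that carry these differences are printed for comparison: Thrsp and Fads2, which fell, and the neighbours Scd and Scd2. Each is the 250 bases before the annotated start, from RefSeq on build GRCr8. Thrsp is chr1:161138965-161139214 on the minus strand, Fads2 chr1:216172034-216172283 on the minus strand, Scd chr1:253231732-253231981 on the minus strand and Scd2 chr1:253118127-253118376 on the plus strand. Capitals mark matches to the motifs searched, and Fads2 and Scd had none.
Thrsp: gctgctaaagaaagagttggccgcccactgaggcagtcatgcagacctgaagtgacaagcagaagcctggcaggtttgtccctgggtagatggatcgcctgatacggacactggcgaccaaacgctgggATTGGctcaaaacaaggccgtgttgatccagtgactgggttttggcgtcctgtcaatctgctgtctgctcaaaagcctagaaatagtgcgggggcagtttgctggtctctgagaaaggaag
Fads2: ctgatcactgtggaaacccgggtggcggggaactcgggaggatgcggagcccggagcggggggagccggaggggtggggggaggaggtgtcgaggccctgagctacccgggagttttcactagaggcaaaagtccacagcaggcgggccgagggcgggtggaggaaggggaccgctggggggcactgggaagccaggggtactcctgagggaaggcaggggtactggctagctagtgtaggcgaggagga
Scd: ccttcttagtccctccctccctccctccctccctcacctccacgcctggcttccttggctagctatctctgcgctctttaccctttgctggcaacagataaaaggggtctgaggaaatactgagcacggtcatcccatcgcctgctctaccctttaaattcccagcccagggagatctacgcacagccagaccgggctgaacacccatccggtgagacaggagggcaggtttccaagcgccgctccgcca
Scd2: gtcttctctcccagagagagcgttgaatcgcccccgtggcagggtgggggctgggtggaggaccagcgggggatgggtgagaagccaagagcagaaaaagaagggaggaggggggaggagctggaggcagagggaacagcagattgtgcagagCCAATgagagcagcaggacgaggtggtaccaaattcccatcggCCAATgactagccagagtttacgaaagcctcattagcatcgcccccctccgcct
The motifs were the sterol regulatory element TCACNCCAC, to which SREBP binds, the E-box CACGTG, the CCAAT box, to which NF-Y binds, and the TATA box TATAAA, on both strands, and no matches overlapped. Windows of 7 of the 10 genes were matched, 8 in all because Srebf1 has 2 starts. Those of Acaca, Fasn and Elovl6 were not analysed here. Of the 8 windows 6 held a CCAAT box, 1 (Elovl5) an E-box, and 0 either of the others. Among 33469 rat promoters of the same length 34.0% held a CCAAT box, 5.59% the E-box, 0.974% the sterol element and 12.9% the TATA box. The Scd2 window held 2 CCAAT boxes, starting at -97 and -54 from the start site, and the Thrsp window 1, at -121.

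The second comparison sets the highly metastatic pair of lines against the other pair and asks which genes go with metastatic ability. None of the 8 tested genes separated the classes by the test. limma's adjusted p called 0 of 8 genes, with 1 (Elovl6) at an unadjusted p under 0.05, and 0 (0%) of 13741 probes, with 1005 (7.31%) at an unadjusted p under 0.05. The adjusted p-values of the 8 genes ran from 0.670 to 0.996. The median difference was -0.13 over the 8 genes and 0 over all probes.

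Elovl6 had the largest difference relative to its error, 1.24 ± 0.25 (SE, n = 2 high against 1 low line; limma adjusted p = 0.670), with no usable spot in C6. Its second probe, usable in all lines, put C6 (4.47) above N1 and L2, and gave 0.82 ± 0.90 (limma adjusted p = 0.837). The classes therefore overlapped on that probe. With irregular spots kept the brighter probe too read higher in C6, at 5.28, than in N1 or L2. Acaca differed by -0.61 ± 0.32 and Elovl5 by -0.16 ± 0.43, each without N1. Acly differed by -0.10 ± 0.26. Fasn differed by 0.02 ± 0.27, a direction that turned when arrays were scaled to the median of probes above background or to the 75th percentile. Fads2 differed by -0.51 ± 0.29 on its brighter probe, with both high-metastatic lines below both low-metastatic ones, and by -0.01 ± 0.40 on the other, where the classes overlapped. Among probes usable on all 4 lines, 36.7% set the classes apart in one direction or the other. Scd differed by -1.05 ± 2.44, from 3 lines.

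**Figure D3:**
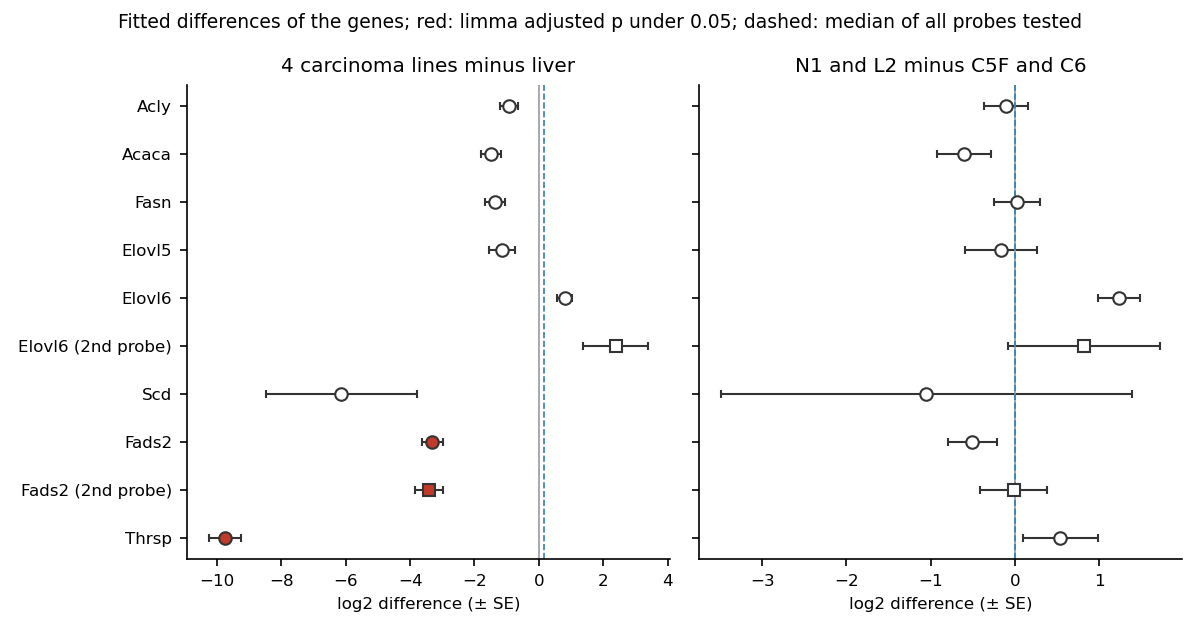
Fitted log2 differences (horizontal axes, ± SE) of each probe tested, for the 4 lines minus liver (left) and for N1 and L2 minus C5F and C6 (right). Circles are the brightest probe, squares a second one, and red fill an adjusted p under 0.05. Fads2 on both probes and Thrsp are filled on the left, and nothing on the right. The fitted Thrsp value depends on the floor.

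The spread within classes was as large as that between them for several genes. C5F minus C6 was 0.45 for Acly, -0.57 for Fasn, -0.63 for Elovl5 and -4.40 for Scd, the last with C5F near background. L2 minus N1 was -0.26 for Acly and 0.01 for Fasn. The median SD over the lines was 0.39 for the 8 tested genes, and 0.34 for those of the 16377 probes kept that had an SD. With 1 array per line, the order of the lines within these ranges has no replicate check.

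Around these genes, a list of 85 further genes of the pathway was read, of which 73 had probes, 58 passed the filter on dim probes and 37 were tested against liver. Of the 37, 2 rose and 5 fell (limma adjusted p under 0.05), and 30 did not pass. That is 7 of 37 where 18.4% of all probes were called. Their median difference was 0.26, against 0.15 for all probes. In precursor supply 1 of 4 tested genes fell: Ppm1k, a phosphatase of branched-chain amino acid breakdown, by 2.76 ± 0.27 (limma adjusted p = 0.0184). Prkaa1, a catalytic subunit of AMP-activated kinase, which inhibits Acaca, was near background in liver and at least 2.58-fold above that limit in the 3 usable lines (limma adjusted p = 0.0619). Of the genes grouped in the list under mitochondrial fatty acid synthesis, only Olah and Aasdhppt were tested on their brightest probe. Neither passed, with differences of -0.26 ± 0.88 for Olah and 0.50 ± 0.60 for Aasdhppt, and unadjusted p-values over 0.05. Mcat, Oxsm and Mecr had no usable liver spot on their brightest probe, and Cbr4 had too few usable spots for a test. Dimmer Mcat probes were tested and did not pass. Olah and Aasdhppt alone thus give no result for the mitochondrial pathway.

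Of 5 elongation genes 1 fell. Hacd4, a 3-hydroxyacyl-CoA dehydratase, fell by 2.14 ± 0.29 (limma adjusted p = 0.0307), but only 5 of 12 alternatives called it: the call was lost with the authors' normalized values (adjusted p = 0.0521), under the median scaling (0.0720), with no filter (0.0630) and without each line (0.0504 to 0.109). Over all alternatives its adjusted p ran from 0.0194 to 0.109 and its difference from -2.27 to -0.87. Its relative Hacd1, near background in liver, was at least 1.16-fold higher in the lines (limma adjusted p = 0.0674). Of 12 regulators 1 rose and none fell. It was Mbtps2, the site-2 protease that releases SREBP, with a fitted 2.40 ± 0.21 (limma adjusted p = 0.0157). It was near background in liver, N1 and L2 and dim in C5F and C6, so that no fold is given. It passed the filter on dim probes only through C5F and C6, and had no test without either. With liver near background, a probe kept that way points higher in the lines. The call was lost with the lines as 1 group (adjusted p = 0.0816), with an offset of 50 (0.0901, difference 0.36), without N1 (0.0518) and without L2 (0.0503), and 6 of 10 alternatives called it (adjusted p from 0.0142 to 0.0901). Insig2, which holds SREBP in the endoplasmic reticulum, differed by -2.87 ± 0.61 without C5F (limma adjusted p = 0.0914), and its dimmest probe, near background in liver, pointed the other way, at 0.98 ± 0.20 (limma adjusted p = 0.0582). Pparg, a nuclear receptor of fat cells, differed by 1.37 ± 2.74 (limma adjusted p = 0.741). Srebf2 and Scap differed by 0.22 ± 0.28 and -0.28 ± 0.29 (limma adjusted p = 0.593 and 0.521). These 2 were named after their values were seen.

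Of 10 tested genes of fatty acid activation and glycerolipid assembly 2 fell and none rose. Acsl1, the main long-chain acyl-CoA synthetase of liver, fell from 10.40 in liver to 4.83 to 5.88 in the 3 usable lines (-4.93 ± 0.35, limma adjusted p = 0.0253). Its second probe, near background in all 4 lines, was at least 6.29-fold lower there. That probe's fitted -4.01 ± 0.77 depends on the floor (limma adjusted p = 0.0509). Lpin1, a phosphatidate phosphatase, fell by 2.49 ± 0.34 (limma adjusted p = 0.0312), with N1 and L2 near background. The other called pathway genes also lost their calls under some alternatives. Ppm1k was called in 8 of 12 (adjusted p from 0.00557 to 0.0739), not without any of the lines. Cyb5a (0.0125 to 0.0858) and Lpin1 (0.0130 to 0.110) were each called in 7 of 12, not without any of the lines nor with no filter. Acsl1 was called in 7 of 9 (0.00444 to 0.0858), not without C6 nor with no filter. Its C6 spot was not usable, and without C5F, N1 or L2 it had no test. Whether its call depends on a single line is therefore not known. Dgat2, which makes triglyceride, differed by -2.25 ± 0.56 without C5F (limma adjusted p = 0.112). Mogat2, a monoacylglycerol acyltransferase near background in liver, was at least 2.21-fold higher in the lines on its brighter probe (limma adjusted p = 0.165). Its dimmer probe was called, with a fitted 2.57 ± 0.30 (limma adjusted p = 0.0243). Liver was at the floor on that probe, so the fitted value depends on the floor, and the lines were at least 1.03-fold higher.

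**Figure D4:**
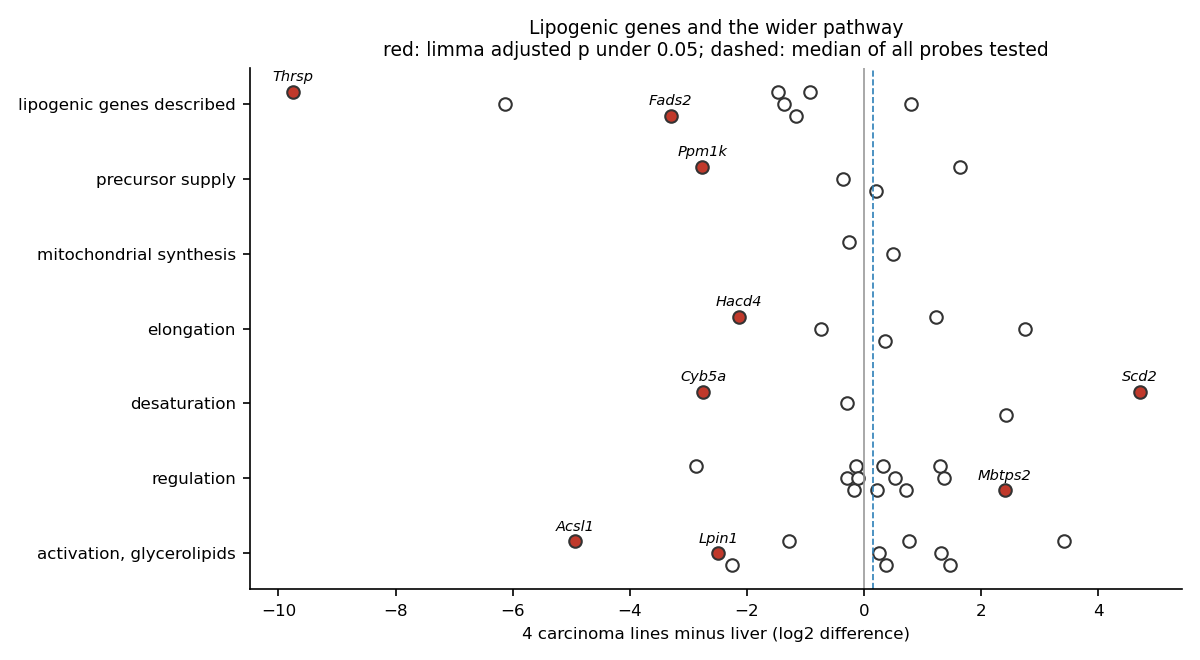
Log2 difference of the 4 lines from liver (horizontal axis) for each gene tested, by role (vertical axis), with the 8 tested genes of the text in the top row. Each circle is 1 gene, shifted vertically for legibility, and red circles passed the test. Thrsp, Fads2, Ppm1k, Hacd4, Cyb5a, Acsl1 and Lpin1 lie below 0, and Scd2 and Mbtps2 above.

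Between the classes, 0 of 46 tested pathway genes passed limma's test, as did 0 of all 13741 probes, with adjusted p-values of the 46 from 0.633 to 1. At an unadjusted limma p under 0.05 were 3 of the 46, and 7.31% of all probes tested. Me1, the malic enzyme that supplies NADPH to Fasn, read 6.77 and 6.83 in N1 and L2 and 5.02 and 6.30 in C5F and C6, a difference of 1.14 ± 0.51 (limma adjusted p = 0.724), and its second probe also set the classes apart (1.09 ± 0.33, limma adjusted p = 0.670). Mbtps2, near background in N1 and L2, differed by -1.30 ± 0.19 (limma adjusted p = 0.633). It passed the filter on dim probes only through C5F and C6, and a probe kept that way points higher in the low-metastatic class. Agpat5, a lysophosphatidate acyltransferase, differed by -1.06 ± 0.30 (limma adjusted p = 0.670). Both high-metastatic lines were below both low-metastatic ones for each. Me1, Mbtps2 and Agpat5 were named for the size of their class difference, and 36.7% of all probes usable on all 4 lines set the classes apart. By the same choice of genes, Pparg differed by 1.34 ± 2.45, Dgat2 by -0.93 ± 0.58 and Prkaa1 by -0.77 ± 0.27. Olah differed by 0.68 ± 0.79, Mecr by -0.67 ± 0.80 and Hsd17b12 by 0.51 ± 0.30. The smallest were 0.47 ± 0.34 for Scd2, 0.44 ± 0.42 for Tecr and 0.42 ± 0.29 for Cyb5b.

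Genes whose 5 signals ran most like those of a member were found by root mean square distance between centred log2 signals, among 3667 probes. For Fasn they were Ubxn2a (distance 0.0775), Rpp21 (0.115) and Nr1d1 (0.122). For Fads2 they were C4bpa (0.174), C3 (0.248) and Cxadr (0.251). For Scd, over the 4 arrays with a usable spot, they were Hsd11b1 (0.417), C1h16orf54 (0.674) and Tnfrsf9 (1.04).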

How the data were processed

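RNA was measured on CodeLink Rat Whole Genome slides, 1 sample per slide, and quantified with CodeLink Expression Analysis 4.1.0.29054, per the file headers. The deposited raw intensity is background-subtracted, since it falls below 0, and the deposited normalized intensity is the raw intensity divided by the array median. The background method is not given in the sources used here. The series matrix equals the normalized intensity (largest difference 0).

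Only discovery probes entered, without spots that the scanner software marked as masked, contaminated or irregular. Raw intensities were quantile normalised with limma 3.58.1 in R 4.3.3 (with the data.table package, version 1.17.8). They were floored at 2.53, the median signal near background, before log2 was taken. A probe was kept (16377 were) if liver, or 2 or more lines of 4, had it above background. Symbols came from the platform annotation, updated through Entrez numbers (16724 of 16753 matched in RefSeq, GRCr8). Each gene is given by its brightest probe on average.

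A single limma fit over the 5 arrays had a mean for liver and for each class of line (at most 2 residual degrees of freedom), with two-sided tests adjusted over all probes tested. A probe with too few usable spots for an error estimate has no test. The fit assumes that liver, with 1 array, varies like the lines of a class. A fold against a group near background is "at least", computed against the lowest signal called above background on its arrays, or the probe's own signal if higher.

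Named genes were the 10 genes, the pathway genes past the threshold, the 2 with the largest difference per role and comparison, and the 3 nearest patterns of Fasn, Scd and Fads2. The genes, lists and tests were chosen with earlier results of these data known. Alternatives were other scalings, the authors' normalized values, an offset of 50, irregular spots kept, no filter, the mean of a gene's probes, other models and leaving out each line.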

Additional observations from a re-analysis of the deposited data

Results flagged for a closer look

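Thrsp in L2, at a log2 signal of 2.42, stood apart from C5F, C6 and N1, which were all at the floor of 1.34. All 4 spots were near background. Plin2, a coat protein of lipid droplets, read 7.59 in C6 and 7.03 to 7.09 in the other 3 lines, and 5.73 in liver. One probe of Prkaa2, a kinase subunit, read 3.50 in L2, near background, and 4.02 to 4.11 in the other lines, but its second probe read 4.44 in L2, within the range of the others. A gap like those of Plin2 and Prkaa2 for 1 of 4 samples arises by chance in about 1 of 20 groups. All kept probes of the 10 genes and the pathway list with usable spots in all 4 lines were screened for it. For Thrsp that rate does not apply, since C5F, C6 and N1 were tied at the floor. Srebf2, the SREBP of cholesterol synthesis, was below liver in C5F and C6 (7.92 and 8.19 against 8.20) and above it in N1 and L2 (8.60 and 8.99). The classes differed by 0.74 ± 0.25 on the log2 scale, which did not pass limma's test (adjusted p = 0.674).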

How the results depend on the processing

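Against liver, 2 of the 10 genes were called and 2 or 3 under 7 of 12 alternatives. With an offset of 50, 5 were called: Acaca, Fasn and Scd besides Fads2 and Thrsp. Without each line in turn 0 to 1 of the 10 genes, 0 to 1 pathway genes and 0 to 617 probes were called (590 without N1). With irregular spots kept, 11 pathway genes and 3335 probes were called, and with no filter on dim probes 3 pathway genes. Each of the 8 tested genes kept its direction against liver under every alternative that gave a value. Scaling to the median of probes above background moved the median of all probes from 0.15 to 0.29, and between the classes from 0 to -0.12. Between the classes, 0 probes were called under every alternative, but several small differences turned: Fasn to -0.16 and -0.12 under the median and 75th percentile scalings and to -0.012 with irregular spots kept (-0.26 to 0.30 without each line), and Scd to 0.56 with irregular spots kept (-3.26 to 1.16 without each line). Without each line Acly ran from -0.34 to 0.12 (0.028 without L2) and Elovl5 from -0.48 to 0.15. The cause was not tested. Leaving out a line leaves fewer probes tested and 1 residual degree of freedom. No paired analysis was possible because no replicate numbers are shared between the groups in the sample labels.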

Other observations

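The array named 5 of the 6 adipocyte markers listed, and they did not run together over the lines. Fabp4, the fatty acid binding protein of fat cells, was above background in N1 (5.98) and near background in liver, C5F, C6 and L2. Cidec, a protein of lipid droplets, read 9.53 in N1, 8.96 in liver, 7.53 in C5F, 6.16 in C6 and 4.05 in L2. Adipoq, adiponectin, was above background in C5F, C6 and N1, at 3.48 to 4.17, and near background in liver and L2. Lep, leptin, was above background in C5F (3.61) and near background on the other arrays, N1 included, though C6 read 3.77, above C5F. Lipe, hormone-sensitive lipase, read 6.86 in liver, 4.93 in C5F and 4.99 in C6 on its brighter probe, was near background in L2 and had no usable spot in N1, and its other probe was near background on all arrays. Outside that list, Pparg, the transcription factor that drives fat cell differentiation, read 9.40 in N1, 6.54 in C6, 3.77 in C5F and 4.46 in liver, and was near background in L2. Its second probe was above background in N1 (6.79) and C6 (4.46) only. Pparg was singled out after its values were seen, each line has 1 array, and no difference of N1 from the other lines was tested. In the comparison of the classes Pparg differed by 1.34 ± 2.45 (limma adjusted p = 0.905).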
